A study of Mus musculus with 2 samples.

Results

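Cxcr2, Csf3r and Ly6g, 3 genes commonly used to mark neutrophils, were followed in spatial transcriptomic sections of mouse small cell lung cancer (SCLC), a neuroendocrine (NE) tumor. The members were chosen by name and make up 3 of the 479 genes of the in situ probe panel, listed as ENSMUSG00000026180 (Cxcr2), ENSMUSG00000028859 (Csf3r) and ENSMUSG00000022582 (Ly6g). The data consisted of 1 lung section per genotype, cut from a single formalin-fixed, paraffin-embedded block and imaged on a Xenium slide, which counts individual transcripts in segmented cells. RPR2 is an engineered mouse model in which the tumor suppressor genes Trp53, Rb1 and Rbl2 are knocked out (KO). CRPR2 carries the same KOs together with Cracd KO, which the study describes as germline. In both, floxed Rb1, Trp53 and Rbl2 were deleted by adenoviral Cre instilled into the trachea of mice 10 weeks old, with recombination limited to infected cells, whereas a germline KO is carried by all cells, neutrophils included. The labels and the study's methods name the virus Ad-Cracd-Cre and a legend of the study names Ad-CMV-Cre, so the promoter is not settled. The study lists C57BL/6 mice of both sexes, 10 weeks old, as its laboratory animals. Its methods name C57BL/6 for purchased mice and transplant hosts, and give no strain for RPR2 or CRPR2. Lungs were collected 6 months after Cre per the study's methods, and the sex of these animals was not given in the sources used here. With 1 section per genotype no test between genotypes could be made, and every interval below is a 95% interval covering counting error only.

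Neutrophils leave the bone marrow under the control of granulocyte colony-stimulating factor, whose receptor is encoded by Csf3r, and move into inflamed tissue through CXCR2, the receptor for ELR-containing CXC chemokines. Ly6g encodes a GPI-anchored surface protein of the Ly6 family that is the usual antibody target for mouse neutrophils. Itgam encodes CD11b, an integrin chain of neutrophils, monocytes, many macrophages and NK cells, Cd3e a chain of the T cell receptor complex, and Ms4a1 the B cell antigen CD20.

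RefSeq promoter windows of the 3 genes are shown because Cxcr2 and Csf3r were found in the same cells and Ly6g was not. They are on GRCm38.p6, plus strand, and each 250-base window was cut before the first GENCODE exon in it. The Csf3r window lies inside the RefSeq span of the gene, which starts at position 126023441 of chromosome 4. Capitals mark AGGAAG on either strand, the core letters of sites for ETS family factors, which include the myeloid regulator PU.1.
Cxcr2, chr1:74153744-74153988: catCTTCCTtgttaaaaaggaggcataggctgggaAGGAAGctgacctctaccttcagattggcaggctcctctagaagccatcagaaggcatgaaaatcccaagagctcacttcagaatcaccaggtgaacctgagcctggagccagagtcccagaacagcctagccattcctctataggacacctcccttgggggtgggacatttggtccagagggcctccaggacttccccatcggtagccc
Csf3r, chr4:126024409-126024549: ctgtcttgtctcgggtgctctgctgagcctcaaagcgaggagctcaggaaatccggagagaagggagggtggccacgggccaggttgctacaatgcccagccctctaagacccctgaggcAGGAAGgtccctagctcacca
Ly6g, chr15:75155011-75155239: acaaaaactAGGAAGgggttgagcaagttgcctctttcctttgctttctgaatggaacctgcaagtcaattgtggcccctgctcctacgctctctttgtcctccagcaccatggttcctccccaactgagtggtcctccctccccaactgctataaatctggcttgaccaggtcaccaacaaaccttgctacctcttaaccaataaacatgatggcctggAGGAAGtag
The printed Cxcr2 and Ly6g stretches hold 2 AGGAAG matches each and the Csf3r stretch 1. The full 250-base windows hold 2, 2 and 4, and 29.5% of 32851 such windows hold at least 1. A second pattern searched on both strands, TTGCNNAA, for factors of the C/EBP family, was found in this Ly6g window and in 9.56% of all windows, but not in the Cxcr2 or Csf3r window nor in a second Ly6g window that overlaps the first. The longer ETS pattern GAGGAAGT, which contains AGGAAG, was found in both Ly6g windows and in 2.44% of all windows, and not in the other members.

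Ly6g lies in a cluster of related genes on chromosome 15, of which Ly6c1 is also on the panel. The first 150 coding bases (GENCODE annotation, GRCm38) are shown because transcripts of the pair were found in the same cells, with Ly6a added as the relative closest to Ly6g. The coordinates run from the first to the last coding base, introns included. Capitals mark bases that differ from Ly6g at the same position.
Ly6g, chr15:75155645-75158736, plus strand: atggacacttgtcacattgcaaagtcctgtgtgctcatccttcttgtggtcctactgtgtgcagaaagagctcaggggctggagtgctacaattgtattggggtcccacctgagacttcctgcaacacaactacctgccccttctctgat
Ly6c1, chr15:75044329-75048511, minus strand: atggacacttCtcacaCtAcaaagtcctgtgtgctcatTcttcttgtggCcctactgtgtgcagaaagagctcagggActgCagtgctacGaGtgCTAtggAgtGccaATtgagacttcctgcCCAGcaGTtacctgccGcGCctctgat
Ly6a, chr15:74995265-74997604, minus strand: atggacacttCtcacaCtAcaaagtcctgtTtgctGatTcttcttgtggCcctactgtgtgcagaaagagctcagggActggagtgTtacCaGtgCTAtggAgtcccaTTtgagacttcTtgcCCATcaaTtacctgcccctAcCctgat
Ly6c1 and Ly6a each differ from Ly6g at 25 of these bases. Over the whole coding sequence, identity to Ly6g was 83.1% for Ly6a, 82.6% for Ly6f, 77.9% for Ly6i, 77.4% for Ly6c2 and 66.9% for Ly6c1, with identical runs of 35, 34, 51, 35 and 31 bases. The Ly6c1 model used has 5 coding exons and 441 bases, against 3 and 402 for Ly6g, so its value compares models of unlike structure. Of these genes Ly6c1 alone is on the panel, which also holds the more distant Ly6h (49.0%) and Gpihbp1 (37.1%). Probe sequences were not analysed here, so whether Ly6g probes bound transcripts of a relative was not tested.

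The sections held 154818 (RPR2) and 342845 (CRPR2) segmented cells, of which 152915 and 340609 had at least 20 gene transcripts and were used. The median was 101 transcripts per cell in both. NE-like cells, gated on panel genes such as Chga and Insm1, were 9.68% of RPR2 and 53.7% of CRPR2 cells, so whole-section values were also recomputed outside that gate. The sections shared 8 cell names, none with equal counts, and the 20 negative control probes averaged 2.75 and 2.29 CPM (counts per 1e6 gene transcripts of the section or class).

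All 3 genes were sparse, and each was at a lower level in the CRPR2 section. Cxcr2 was found in 1878 RPR2 cells (1.23%, 1.17 to 1.28) and 2346 CRPR2 cells (0.689%, 0.661 to 0.717). Csf3r was found in 4689 RPR2 cells (3.07%, 2.98 to 3.15) and 7442 CRPR2 cells (2.18%, 2.14 to 2.23). Ly6g was found in 12654 RPR2 cells (8.28%, 8.14 to 8.41) and 18430 CRPR2 cells (5.41%, 5.34 to 5.49). The order of the shares is not an order of expression, because probe sets differ in efficiency. In most Ly6g cells the gene rested on a single transcript, in 87.8% of RPR2 and 86.9% of CRPR2 positive cells. For Cxcr2 that fraction was 51.3% and 64.7%, and for Csf3r it was 57.6% and 67.1%. The most transcripts in any cell were 13 for Cxcr2, 14 for Csf3r and 10 for Ly6g. NE-like cells, which should lack the genes, held Cxcr2 in 0.122% and 0.160%, Csf3r in 0.351% and 0.388%, and Ly6g in 0.649% and 1.26% of cells, at a median depth of 102 and 98 transcripts.

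Cells with both Cxcr2 and Csf3r formed the main overlap among the 3 genes. They numbered 1338 in RPR2 (0.875% of cells) and 1142 in CRPR2 (0.335%). Only 73 and 86 cells, respectively, held all 3 genes, while 12333 and 17875 cells held Ly6g without Cxcr2 or Csf3r. Csf3r alone was found in 3147 and 5898 cells, and Cxcr2 alone in 496 and 1137. Cells with at least 2 of the 3 genes were also counted after thinning to 50 transcripts, among cells with at least that many. They were 0.570% (0.531 to 0.611) of these cells in RPR2 and 0.219% (0.203 to 0.236) in CRPR2. The ratio between sections still moved with the thinning depth, as given at the end.

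Co-detection was measured as the number of cells with both genes over the number expected from their shares within strata of transcripts per cell. Cxcr2 and Csf3r were found together at 18.7 times (17.7 to 19.8) the expected number in RPR2 and 19.1 times (18.0 to 20.3) in CRPR2. Of the Cxcr2 cells, 71.2% in RPR2 and 48.7% in CRPR2 also held Csf3r, whereas 28.5% and 15.3% of the Csf3r cells held Cxcr2. Outside the NE-like gate the ratio was 17.2 and 11.9, and among cells with Ptprc, the pan-leukocyte gene CD45, it was 4.45 and 3.76. Ly6g did not share this pairing. Cxcr2 and Ly6g occurred together in 117 and 153 cells, 0.96 (0.79 to 1.15) and 1.07 (0.91 to 1.25) times the expected number. Csf3r and Ly6g occurred together in 277 and 488 cells, 0.75 (0.67 to 0.85) and 0.99 (0.91 to 1.09) times the expected number.

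**Figure D1:**
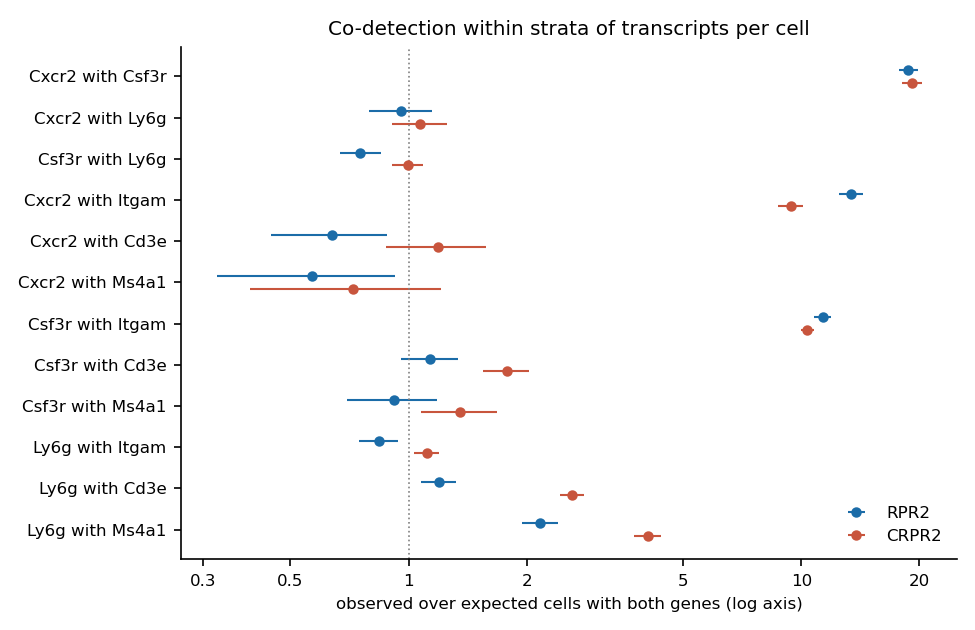
Observed over expected number of cells with both genes of a pair (log axis) in the RPR2 (blue) and CRPR2 (red) sections. Points are ratios, bars are exact 95% intervals for counting error, and the dotted line marks 1. Cxcr2 with Csf3r, and each of them with Itgam, lie between 9.40 and 19.1, whereas Ly6g with Cxcr2, Csf3r or Itgam lies between 0.75 and 1.11.

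Itgam split the members the same way, and the lymphocyte genes did not. Cxcr2 was found with Itgam at 13.4 times the expected number in RPR2 and 9.40 times in CRPR2, and Csf3r 11.3 and 10.4 times. Ly6g was found with Itgam at 0.84 and 1.11 times the expected number. The T cell gene Cd3e was found with Cxcr2 at 0.64 and 1.19 times, with Csf3r at 1.13 and 1.78 times, and with Ly6g at 1.19 and 2.61 times the expected number. Ms4a1 was found with Cxcr2 at 0.57 and 0.72 times and with Csf3r at 0.92 and 1.35 times the expected number. For Ly6g it was 2.16 times (1.94 to 2.40) in RPR2 and 4.07 times (3.74 to 4.41) in CRPR2, the highest ratio of Ly6g with any of the 5 genes of the comparison (Cxcr2, Csf3r, Itgam, Cd3e and Ms4a1). In CRPR2 the ratios of Csf3r with Cd3e and Ms4a1 and of Ly6g with Itgam fell below 1 outside the NE-like gate, at log2 values of -0.04, -0.37 and -0.49.

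The share of Cxcr2 cells that held other neutrophil genes grew with the number of Cxcr2 transcripts. Csf3r was found in 2.22%, 53.4%, 84.0% and 95.2% of RPR2 cells with 0, 1, 2 and at least 3 Cxcr2 transcripts. In CRPR2 the corresponding shares were 1.86%, 33.2%, 71.0% and 83.3%. Itgam reached 67.7% and 60.2% in the cells with at least 3 Cxcr2 transcripts. Ly6g showed no such rise, at 8.30%, 7.37%, 4.78% and 5.24% in RPR2 and 5.40%, 5.60%, 9.52% and 6.88% in CRPR2. In the other direction, Csf3r was found in 3.15% of RPR2 cells without Ly6g and 4.10% of those with at least 3 Ly6g transcripts, and in 2.16% and 3.36% of CRPR2 cells. Median depth showed no steady rise with Cxcr2, being 101, 79, 61 and 77 transcripts in RPR2 and 101, 120, 94 and 94 in CRPR2.

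**Figure D2:**
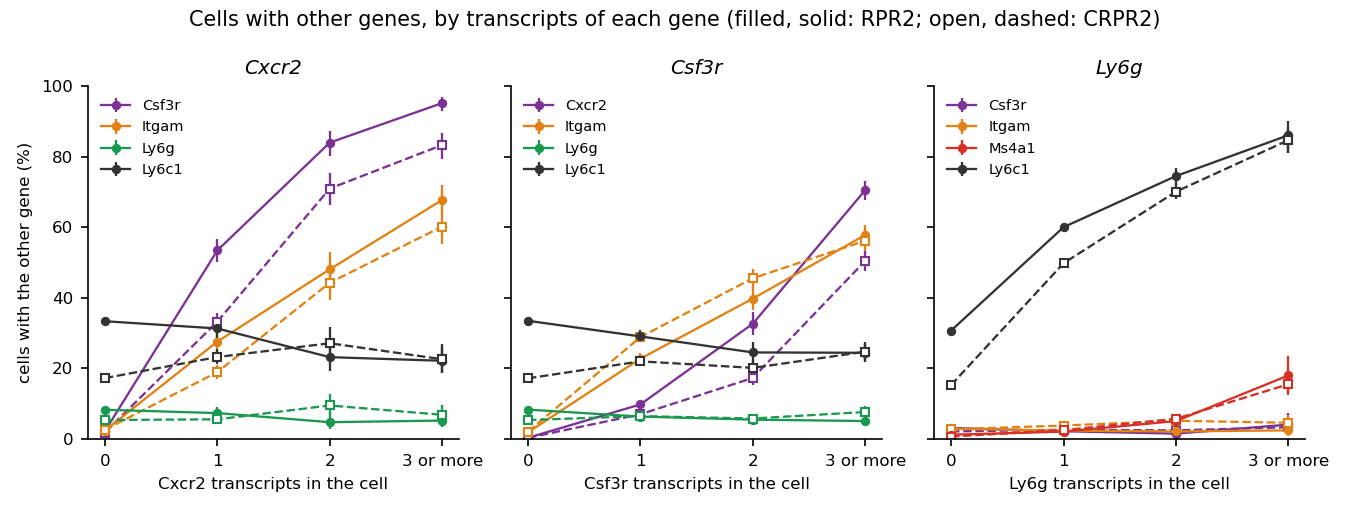
Share of cells (%) that held another gene, by the number of transcripts of Cxcr2, Csf3r or Ly6g in the cell, for RPR2 (filled symbols, solid lines) and CRPR2 (open symbols, dashed lines). Bars are exact 95% intervals for counting error. Csf3r and Itgam climb with Cxcr2, to 95.2% and 67.7% in RPR2, whereas Ly6c1 climbs with Ly6g, to 86.1% in RPR2 and 84.7% in CRPR2.

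Across the panel, the genes found most with Cxcr2 were Mrgpra2a, a Mas-related G protein-coupled receptor (26.3 and 29.5 times the expected number), Stfa2l1, a stefin A family gene (24.4 and 31.9), Csf3r, Il1r2, the decoy receptor for interleukin-1 (23.0 and 18.4), and Mmp9, which encodes gelatinase B (16.4 and 25.1). For Csf3r they were Cxcr2, Stfa2l1 (13.12 and 11.99), Mmp9 (11.5 and 15.2), Ifitm6 (11.6 and 10.8) and Mrgpra2a (13.03 and 10.39). None of these led for Ly6g. Its 5 leading partners were Prg2, which encodes eosinophil major basic protein (3.25 and 5.72), Mpo, the azurophil granule peroxidase (2.97 and 4.13), Ms4a1, Cubn, an endocytic receptor (1.93 and 3.45), and Ctla4, a T cell checkpoint receptor (1.80 and 3.19). These named genes are those with the highest lower ratio of the pair of sections among genes found in at least 20 cells with the member in each section.

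The panel holds 8 genes of a neutrophil list that leaves out the 3 members, namely Mmp8, Mmp9, Il1r2, Stfa2l1, Mpo, Ctsg, Ifitm6 and Pglyrp1, and those with at least 5 expected cells were compared. With Cxcr2, 6 of 6 reached at least 2 times the expected number in both sections. Of all panel genes, 11.4% did so in RPR2 and 14.1% in CRPR2. These panel shares, and those that follow, count each section by itself and not both together. With Csf3r it was 5 of 7, against 13.2% and 16.7%. With Ly6g it was 1 of 8, the 1 being Mpo, against 0.629% and 7.97%. Mpo was near the floor, at 15.8 and 12.3 CPM outside the neutrophil-like gate described below. The highest negative control codeword stood at 9.38 and 12.7 CPM. The median ratio of the list was 14.9 and 14.2 with Cxcr2, 11.4 and 8.03 with Csf3r, and 1.07 and 1.36 with Ly6g, beside medians over all panel genes of 0.73 and 0.89, 0.80 and 0.89, and 0.90 and 1.16. Of the 4 recruitment and adhesion genes on the panel, 3 reached 2 times in both sections with Cxcr2 and with Csf3r, and 0 with Ly6g. Of the macrophage list, 5 of 6 genes did so with Csf3r and 2 of 6 with Cxcr2. For the endothelial list, whose 8 genes include Pecam1 and Tie1, the median ratio with Ly6g was 1.37 in RPR2 and 2.12 in CRPR2.

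**Figure D3:**
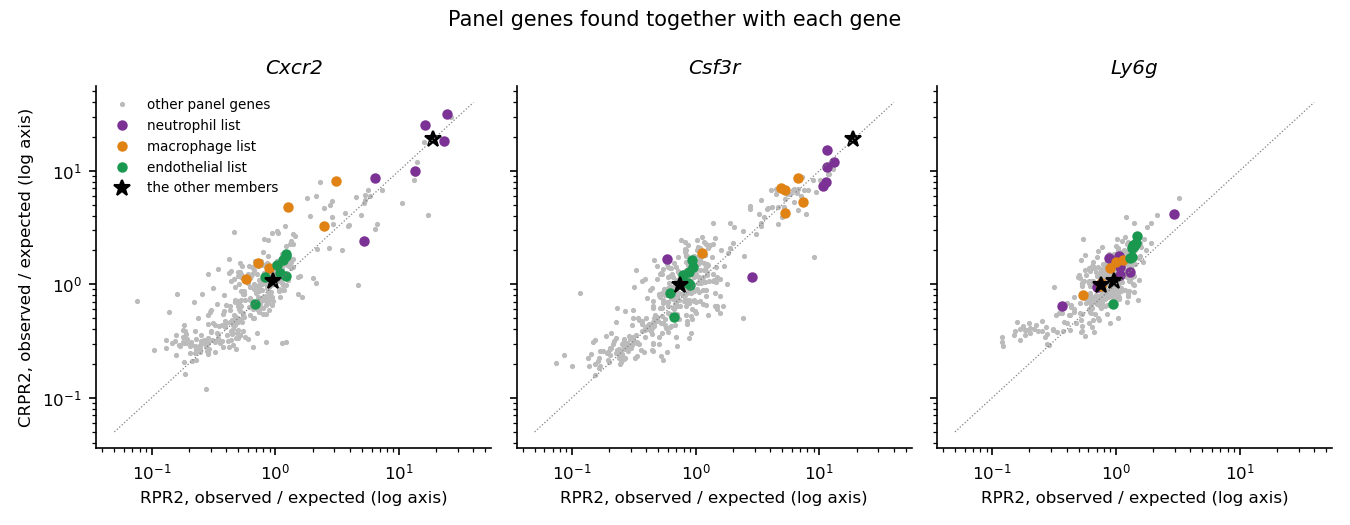
Observed over expected co-detection with Cxcr2, Csf3r and Ly6g for every panel gene with at least 5 expected cells in both sections and a ratio above 0 (points), RPR2 on the horizontal and CRPR2 on the vertical axis (both log). Stars mark the other members, colours the neutrophil, macrophage and endothelial lists, and the dotted line equality. Neutrophil list genes lie at the upper right for Cxcr2 and Csf3r, with medians of 14.9 and 11.4 in RPR2, and amid the other genes for Ly6g, with a median of 1.07.

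Levels were then read within classes of cells gated on marker genes other than the 3 members, a cell entering the class whose markers stood out most. The neutrophil-like gate, which used the 8 listed genes, took in 1291 RPR2 cells and 1037 CRPR2 cells. Its leading panel genes were Cxcr2, Stfa2l1 and Csf3r, and Itgam was among its top 10. Of these Stfa2l1 is a marker of the gate, whereas Cxcr2, Csf3r and Itgam are not. The gate also took in 299 RPR2 cells and 348 CRPR2 cells with neither Cxcr2 nor Csf3r. The level of Cxcr2 there was 17407 CPM (RPR2) and 12739 CPM (CRPR2), in 55.8% and 48.9% of the cells. Csf3r stood at 29346 and 19542 CPM, in 74.2% and 63.1% of the cells. Ly6g stood at 969 CPM (794 to 1170) and 1253 CPM (1049 to 1485), in 6.89% and 10.5% of the cells. Over the whole section Ly6g was at 892 CPM in RPR2, within that interval, and at 577 CPM in CRPR2, below it. The gate held 38.3% and 21.6% of all Cxcr2 cells and 20.4% and 8.79% of all Csf3r cells, but 0.703% and 0.591% of all Ly6g cells, so Ly6g alone did not pick out neutrophil-like cells in these sections.

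Cxcr2 was highest in the neutrophil-like gate in both sections. Next came the cells gated on Cpa3, the mast cell carboxypeptidase, at 11176 and 2554 CPM, though these were 23 and 32 cells, of which 11 and 3 held Cxcr2. Cells of no gate, with a median of 41 and 44 transcripts, followed at 2088 and 478 CPM. The macrophage-like gate, at 211 and 530 CPM, and the Ppbp and Pf4 gate, at 471 and 119 CPM, changed places between sections, and many of the classes below them crossed too. NE-like cells (11.8 and 16.4 CPM) and ciliated-like cells (9.43 and 8.34 CPM) were the lowest of the classes reported by the mean of both sections.

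Csf3r spread further into myeloid classes. After the neutrophil-like gate came cells of no gate (4245 and 1716 CPM), the macrophage-like gate (3113 and 2697 CPM) and the Ppbp and Pf4 gate (2101 and 3382 CPM), whose order differed between sections. Csf3r was found in 24.6% and 25.3% of macrophage-like cells. The cells gated on Cd209a and Cd80 held it at 716 and 1229 CPM. Fibroblast-like cells held it at 252 and 567 CPM and mural-like cells at 254 and 523 CPM. Endothelial-like cells held it at 238 and 227 CPM, NE-like cells at 38.5 and 42.2 CPM and ciliated-like cells at 25.7 and 33.4 CPM. In the Cpa3 gate Csf3r was found in 0 of 23 RPR2 cells, with an exact upper bound of 14.8%, and in 2 of 32 CRPR2 cells.

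Ly6g was spread over nearly all classes. Cells of no gate stood at 1897 and 1947 CPM and endothelial-like cells at 1568 and 1801 CPM, above the neutrophil-like gate in both sections. T cell-like cells stood at 1123 and 1754 CPM and ciliated-like cells at 980 and 1478 CPM. The neutrophil-like gate, at 969 and 1253 CPM, lay below both in each section. The ciliated-like values, and the T cell-like value in RPR2, were however within its counting intervals. Several classes lay below the neutrophil-like gate in both sections, among them macrophage-like cells (617 and 477 CPM) and mural-like cells (463 and 618 CPM). The NE-like gate was the lowest, at 62.1 CPM (50.5 to 75.6) and 126 CPM (121 to 131). By number, the endothelial-like gate held 47.9% of all Ly6g cells in RPR2 and 23.4% in CRPR2.

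**Figure D4:**
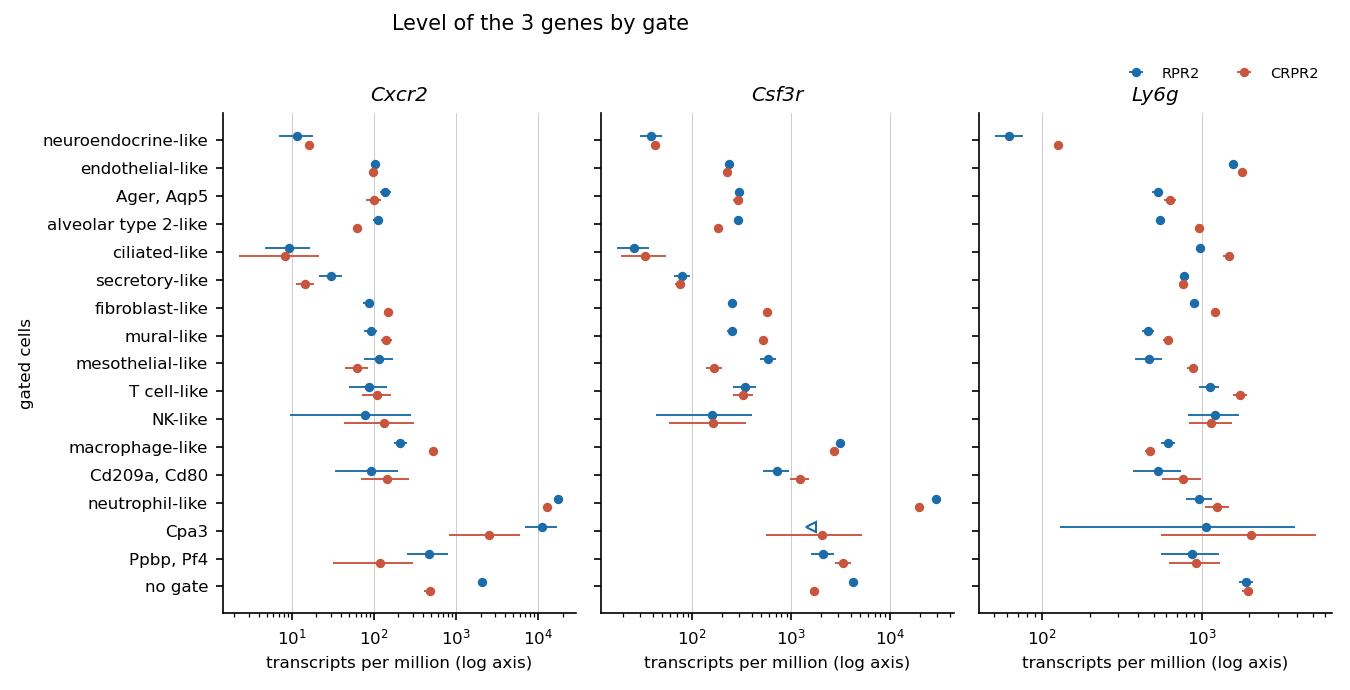
Level of Cxcr2, Csf3r and Ly6g (CPM of all gene transcripts in the class, log axis) in the gated classes of cells reported, for RPR2 (blue) and CRPR2 (red). Bars are exact 95% Poisson intervals, and the open triangle marks the limit that a count of 0 allows. Cxcr2 and Csf3r peak in the neutrophil-like gate, at 17407 and 29346 CPM in RPR2, whereas Ly6g in the neutrophil-like gate (969 CPM) lies below the cells of no gate (1897 CPM) and the endothelial-like cells (1568 CPM).

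Ly6g followed Ly6c1, which marks vascular endothelium and some lymphocytes and monocytes. Of the Ly6g cells, 62.0% in RPR2 and 52.8% in CRPR2 held Ly6c1, 1.68 and 2.49 times the expected number. Ly6h, a more distant relative and a leading gene of the NE-like gate, was found with Ly6g at 0.12 and 0.35 times. Ly6g6c, also on the panel and named after the same family, was found with Ly6g at 0.41 and 0.53 times. Gpihbp1, a further relative on the panel, belongs to the endothelial list. The share of cells with Ly6g was 4.72%, 10.9%, 17.9% and 26.7% in RPR2 cells with 0, 1, 2 and at least 3 Ly6c1 transcripts, and 3.09%, 11.7%, 20.1% and 31.7% in CRPR2 cells. The rise was present within the endothelial-like gate, from 10.1% to 25.4% (RPR2) and 10.2% to 29.1% (CRPR2). It was also present outside that gate, from 3.70% to 29.6% and 2.84% to 34.5%. Median depth rose along the same steps, from 93 to 134 and from 97 to 145 transcripts. In the neutrophil-like gate Ly6g rose with Ly6c1 too, going from 5.93% of 945 RPR2 cells to 23.1% of 26 and from 7.50% of 787 CRPR2 cells to 35.7% of 28. These splits by Ly6c1 were chosen after the first values were seen.

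Cells with at least 3 Ly6g transcripts, 244 in RPR2 and 476 in CRPR2, were also looked at after the first values were seen. They held Ly6c1 in 86.1% and 84.7%, and Prg2 in 42.6% (36.3 to 49.1) and 39.1% (34.7 to 43.6), 20.2 and 33.4 times the expected number. Mpo was found in 4.92% and 4.62%, against 0.154% and 0.125% of all cells, but these were 12 and 22 cells. The expected numbers, 0.362 and 0.635, were below the 5 cells needed for a ratio to be counted. Ms4a1 was found in 18.0% and 15.5%. Nearly all of the Ms4a1 cells also held Prg2, with 43 and 67 cells holding the pair. Ptprc was found in 36.5% and 39.9%, but Csf3r in 4.10% and 3.36% and Cxcr2 in 1.64% and 0.840%. By Prg2 itself, Ly6g was found in 7.88% of RPR2 cells without Prg2, 11.8% with 1 transcript, 30.2% with 2 to 9 and 66.2% with at least 10. In CRPR2 these shares were 5.11%, 17.2%, 38.7% and 71.0%. Median depths in these classes lay between 92 and 114 transcripts.

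Within the neutrophil-like gate, cells with and without Cxcr2 differed in other genes. Csf3r was found in 95.3% of RPR2 and 93.1% of CRPR2 cells with Cxcr2, against 47.6% and 34.3% of cells without it. Itgam was found in 65.0% and 65.9% against 46.8% and 32.6%. Cells without Cxcr2 more often held the monocyte and macrophage genes Clec4a3 (57.8% and 46.0%, against 9.31% and 9.66%) and Cd68 (46.9% and 56.2%, against 13.3% and 21.3%). They also more often held Cybb (58.5% and 58.9%, against 10.1% and 21.9%). Their median depth was higher, 86 and 112.5 transcripts against 72 and 77. Mmp9 was found in 88.8% and 92.9% of the cells with Cxcr2 against 35.9% and 34.7%, but it belongs to the gate. Not all markers of the gate followed Cxcr2 in this way, as the correlations below show. Ly6g was found in 6.11% and 9.47% of the cells with Cxcr2 and in 7.88% and 11.5% of those without. Over the 1291 and 1037 cells of the gate, the Pearson correlation of depth-scaled values was 0.61 and 0.67 between Cxcr2 and Csf3r, -0.54 and -0.42 between Cxcr2 and Clec4a3, and -0.04 and -0.03 between Cxcr2 and Ly6g. For markers of the gate, the correlation with Cxcr2 was 0.51 and 0.58 for Mmp9, but -0.37 and -0.11 for Ifitm6. For Mmp8 it was 0.17 in RPR2 and -0.11 in CRPR2. For Il1r2, Stfa2l1 and Pglyrp1 it lay between 0.19 and 0.34 in both sections. These are descriptions of cells that share a section.

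Cells with Cxcr2 and Csf3r together were in the neutrophil-like gate in 51.3% of cases in RPR2 and 41.3% in CRPR2. Cells with Csf3r and no Cxcr2 were in that gate in 8.12% and 2.89% and in the macrophage-like gate in 35.0% and 44.1%. Genes from the marker lists of other classes were present in the double-positive cells, with Pecam1 in 40.1% and 31.2% against 40.2% and 13.7% of cells with none of the 3 genes. Pecam1 is in the endothelial list and also in the recruitment and adhesion list. Median depth was 67 and 84 transcripts against 99 and 99, and the shares were not matched for it. Cells were segmented by expanding nuclei, and the part of neighbouring cells in these values was not tested.

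In the macrophage-like gate Cxcr2 was the member that stood higher in CRPR2. It was found in 74 of 4877 RPR2 cells (1.52%, 1.19 to 1.90) and 611 of 11704 CRPR2 cells (5.22%, 4.82 to 5.64), at a median depth of 113 and 138 transcripts. After thinning, the shares were 0.631% and 2.00%, a log2 ratio of 1.66 (1.099 to 2.271). Csf3r in the same gate showed a log2 ratio of thinned shares of -0.11 (-0.26 to 0.03). The macrophage-like gate held 3.94% of all Cxcr2 cells in RPR2 and 26.0% in CRPR2. With 1 section per genotype, genotype and section cannot be told apart.

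Cxcr2 was unevenly spread over the macrophage-like gate. Split after the first values were seen, cells with Atp6v0d2, a subunit of the vacuolar proton pump, held Cxcr2 in 3.17% of RPR2 and 9.19% of CRPR2 cases, and cells without it in 0.630% and 0.711%. Thinned, these shares were 1.07% and 3.31% against 0.377% and 0.424%, and in RPR2 the intervals just overlapped (0.638 to 1.69 and 0.188 to 0.673). Cells with the scavenger receptor gene Marco held it in 1.41% and 3.78%, thinned, against 0.472% and 1.88% of cells without, and in RPR2 these intervals overlapped. Cells with F13a1 or Folr2, genes of interstitial macrophages, showed the reverse in CRPR2, with thinned shares of 0.504% and 0.337% against 2.39% and 2.24% of cells without them. In RPR2 the intervals with and without F13a1, or Folr2, overlapped. Of the Cxcr2 cells themselves, 73.0% and 93.6% held Atp6v0d2 and 43.2% and 13.9% held Marco. Neutrophil genes differed among these cells, with Mmp8 in 35.1% and 31.1% (against 14.6% and 16.9% of cells without Cxcr2), Csf3r in 40.5% and 30.8% (against 24.4% and 25.03%) and Mmp9 in 12.2% and 3.93% (against 19.8% and 9.68%). The median depth was 156 and 183 transcripts with Cxcr2 and 113 and 135 without.

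**Figure D5:**
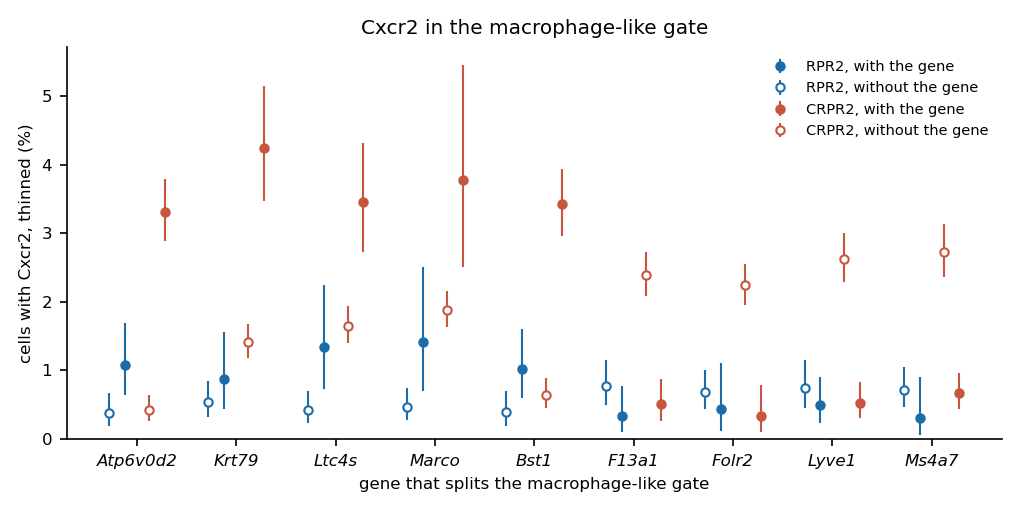
Share of macrophage-like cells with Cxcr2 after thinning to 50 transcripts (%), for cells with (filled) and without (open) each gene on the horizontal axis, in RPR2 (blue) and CRPR2 (red). Bars are exact 95% intervals for counting error. In CRPR2 the share was higher with Atp6v0d2 (3.31% against 0.424%) and lower with F13a1 (0.504% against 2.39%).

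The cells with Cpa3 were described after their values were seen, and in RPR2 they held Cxcr2 more often than Csf3r. Of RPR2 cells with at least 2 Cpa3 transcripts, 15 of 49 held Cxcr2 (30.6%, 18.3 to 45.4) and 2 held Csf3r. In CRPR2 7 of 85 held Cxcr2 (8.24%, 3.38 to 16.2) and 7 held Csf3r, so the gap between the genes was not present there. Among cells without Cpa3 the shares with Cxcr2 were 1.21% and 0.685%.

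The comparison of the sections asks how these neutrophil genes stood with and without Cracd. Over all cells the level of each member was lower in CRPR2, which also had the larger NE-like fraction. Cxcr2 fell from 232 to 106 CPM, a log2 ratio of -1.13 (-1.19 to -1.06). Csf3r was at 568 and 326 CPM (-0.80, -0.84 to -0.76) and Ly6g at 892 and 577 CPM (-0.63, -0.66 to -0.60). Over all panel genes the median log2 ratio was -0.14, with 20.0% of genes at least 2-fold lower in CRPR2 and 18.8% at least 2-fold higher, and of the members Cxcr2 passed 2-fold. In such sums over a section, fewer cells of a type and less RNA per cell cannot be told apart.

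Outside the NE-like gate the members no longer moved together. Cxcr2 had 256 CPM (RPR2) and 199 CPM (CRPR2), a log2 ratio of -0.36 (-0.43 to -0.29). Csf3r was at 626 and 621 CPM (-0.01, -0.05 to 0.03), and Ly6g at 982 and 1046 CPM (0.09, 0.06 to 0.12). Itgam, for comparison, was at 456 and 777 CPM (0.77, 0.73 to 0.81). The median over all panel genes was 0.17 there, with 7.31% at least 2-fold lower and 22.1% at least 2-fold higher, and no member passed 2-fold either way. Of the 479 genes, 130 had a lower log2 ratio than Cxcr2, 203 than Csf3r and 222 than Ly6g.

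The thinned share of cells also split the members outside the NE-like gate, with Csf3r and Ly6g then higher in CRPR2. Over all cells it was 0.729% and 0.378% for Cxcr2, 1.76% and 1.18% for Csf3r, and 4.15% and 2.59% for Ly6g. Outside the NE-like gate it was 0.800% and 0.721%, 1.93% and 2.33%, and 4.55% and 4.93%. Among cells with Ptprc, Cxcr2 was found in 4.84% and 2.56% and Csf3r in 10.9% and 8.44%, whereas Ly6g was found in 4.93% and 4.92%. Thinning to 100 transcripts, which keeps only cells at least that deep, gave a log2 ratio of -0.13 (-0.30 to 0.03) for Cxcr2 over all cells.

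The neutrophil-like gate itself was smaller in CRPR2 on every denominator used, in counts that were not thinned. It held 0.844% (0.799 to 0.891) of all RPR2 cells and 0.304% (0.286 to 0.324) of all CRPR2 cells. Outside the NE-like gate these shares were 0.935% and 0.658%, a log2 ratio of -0.51 (-0.63 to -0.39), and among cells with Ptprc they were 6.12% and 2.46% (-1.31, -1.44 to -1.18). Double-positive Cxcr2 and Csf3r cells showed log2 ratios of -0.46 (-0.57 to -0.34) outside the NE-like gate and -1.13 (-1.254 to -0.998) among cells with Ptprc. Median depth was 77 and 92 transcripts in the gate and 67 and 84 in the double-positive cells. Within the neutrophil-like gate, Cxcr2 and Csf3r were at log2 ratios of -0.45 (-0.55 to -0.35) and -0.59 (-0.67 to -0.51). Ly6g was at 0.37 (-0.01 to 0.75), whose interval includes 0. The make-up of the gate differed, as 299 of 1291 RPR2 cells and 348 of 1037 CRPR2 cells held neither Cxcr2 nor Csf3r. Among gate cells with Cxcr2, Csf3r was at 47956 CPM (RPR2) and 40326 CPM (CRPR2). The part of this make-up in the ratios was not tested.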

How the data were processed

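Xenium in situ transcript counts were deposited by the authors as 1 matrix per section, with whole-number counts of transcripts per gene and segmented cell. Per the study's methods, cells were segmented by nuclear expansion and images were processed in Xenium Explorer; the submitters' processing notes name Seurat 4.4.0. The labels' extraction text describes tissue dissociation, which belongs to another assay. Cell coordinates were not used here.

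Cells with at least 20 gene transcripts were kept, and control features were left out. Levels are CPM of all gene transcripts. Shares called thinned were taken after drawing 50 transcripts per cell without replacement, which left 137059 RPR2 and 306550 CRPR2 cells. All other shares, those of gates and double-positive cells included, used every transcript of the kept cells. Expected co-detection was summed over 50 strata of transcripts of the other panel genes, and ratios needed at least 5 expected cells to be counted. Each cell was assigned to 1 of 17 gates, needing at least 3 transcripts of that gate's markers and taking the gate whose markers exceeded their average share most; this scoring was set after the data had been seen. Doublets were not called. Gates with fewer than 3 panel markers are called by their genes. Levels in 1 gate are not reported here. Intervals are exact (Clopper-Pearson for shares, Poisson for sums, conditional for ratios), at 95%. The co-detection script was tested on simulated data. Members and lists were chosen with earlier results of these data known. Named genes were the members, Itgam, Cd3e, Ms4a1, Ptprc, the listed panel genes and the 5 genes with the highest co-detection ratio per member, with others named after their values were seen. Computation was done in Python 3.11.15 with scipy 1.17.1 for intervals, pandas 2.3.3 and numpy 2.4.6 for tables and counts, and Biopython 1.88 for coding sequence alignment.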

Additional observations from a re-analysis of the deposited data

How the results depend on the processing

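No paired analysis was possible because each genotype had 1 section and no test was made. Of 263 values under alternatives, 152 stayed within the counting interval, 102 moved beyond it and 9, whose reported interval excluded 0, changed sign. Cxcr2 with Ly6g and Csf3r with Ly6g in CRPR2, whose reported intervals included 0, also took both signs. Causes were not tested except where a value is given.

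For the log2 ratio (CRPR2 over RPR2) of the share of cells, no thinning gave -0.49 for Csf3r, -0.61 for Ly6g and -1.13 for cells with at least 2 of the 3. Thinning to 30 transcripts gave -1.23 for Cxcr2, -0.84 for Csf3r and -1.67 for at least 2 of the 3, and thinning to 100 gave -0.13, -0.14 and -0.76. Requiring at least 2 transcripts of the gene gave -1.55, -1.22 and -1.77 in the same order. Outside the NE-like gate the shares gave -0.15 for Cxcr2 and -0.44 for at least 2 of the 3, while Csf3r (0.27) and Ly6g (0.11) changed sign. Among Ptprc cells Csf3r gave -0.37 and Ly6g -0.0014.

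For the log2 ratio of levels, the mean per cell gave -0.76 for Csf3r and -0.59 for Ly6g. Size factors gave -0.98 for Cxcr2, -0.66 for Csf3r and -0.48 for Ly6g. Cells with at least 50 transcripts gave -0.95 for Cxcr2 and -0.65 for Csf3r. Outside the NE-like gate Cxcr2 gave -0.36 and Csf3r -0.0128, and Ly6g (0.0911) changed sign.

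For log2 co-detection, Cxcr2 with Csf3r, reported at 4.23 (RPR2) and 4.26 (CRPR2), gave 4.54 and 4.48 without strata, 4.10 and 3.58 outside the NE-like gate, 2.15 and 1.91 among Ptprc cells, and 4.56 and 5.04 with at least 2 transcripts. In CRPR2 alone it also moved with at least 50 transcripts per cell (4.09) and without the 1% deepest cells (4.35). Cxcr2 with Ly6g gave -0.41 in RPR2 without strata, -0.50 in CRPR2 outside the NE-like gate, -0.40 and -0.43 among Ptprc cells, and 0.61 in CRPR2 with at least 2 transcripts. Csf3r with Ly6g gave 0.28 in CRPR2 without strata, -0.68 in CRPR2 outside the NE-like gate, and -0.61 and -0.68 among Ptprc cells. In CRPR2 Csf3r with Cd3e (-0.0430 and -1.74), Csf3r with Ms4a1 (-0.37 and -2.07) and Ly6g with Itgam (-0.49 and -0.50) changed sign outside the NE-like gate and among Ptprc cells.

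Most positive cells of each gene held a single transcript, and cells with Cxcr2 and Csf3r but no Ly6g had a median of 66 and 82 transcripts, so that thinning to 100 compares other cells. Section, animal and genotype cannot be told apart.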
